A study of Mus musculus with 12 samples.

Results

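The genes described here are 31 components, regulators and receptors of the complement system, taken by symbol from 13267 genes measured in mouse liver. All 31 were in the table and all 31 passed the filter on low values (6 or more libraries at 10 or above), as did 12720 genes in all. The 12 libraries were made from livers, flushed and frozen, of C57BL/6 mice that were obese and had fatty livers after a high-fat diet (HFD). For 6 weeks the mice of 6 libraries were given a scaffold control under the skin, and those of the other 6 received 4-HPAA (4-hydroxyphenylacetic acid, a phenolic acid that gut bacteria make from polyphenols) by the same route. The 2 groups therefore share the strain, the diet, the obesity and the subcutaneous route, and the labels used here give neither sex nor age and no lean group. They number the libraries of a group 1 to 6 and do not state that each is 1 mouse, and the p-values below rest on the spread among the 12 libraries, which may be partly technical. The values appear to be read counts that the authors scaled per library, called scaled read counts here.

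Complement is a set of plasma proteins and receptors that marks microbes and damaged cells. The classical pathway starts with the C1 complex, the lectin pathway with mannose-binding lectins and collectins, and the alternative pathway with factor B and properdin. All of them split C3 and then C5, whose fragments attract leukocytes and start the pore-forming membrane attack complex. Hepatocytes make most of the plasma proteins, and many of their complement genes respond to inflammatory cytokines. Macrophages, among them the Kupffer cells of the liver, make C1q, and myeloid cells make properdin and carry the receptors for C3a and C5a. The members were divided on this knowledge into 21 hepatocyte-made genes, 6 macrophage-made genes (C1qa, C1qb, C1qc, Cfp, C3ar1 and C5ar1) and 4 others (Colec10, Colec11, Cd55 and Cd59a). The 4 others are made by other cells too and were not counted as hepatocyte-made. Whether the 21 are also made by other cells was not assessed. All 4 others had negative differences, and the lists were chosen with earlier results of these data known. The counts by class below therefore depend partly on this split.

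Over all genes, scaled totals were 22869813 to 25255447 per library. 4-HPAA replicate 3 stood apart on the second principal component, at −56.45 where the other 11 libraries lay between −7.52 and 17.03. Without it, 19 complement genes were higher and 3 lower at an unadjusted p under 0.05 in limma, against 17 and 3 with all libraries, Cfhr2 and Masp1 being the 2 genes added.

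Most hepatocyte-made complement genes had higher values in 4-HPAA livers, by 1.16- to 2.16-fold for those with an unadjusted p under 0.05, while the macrophage-made genes lay near 0 or on the lower side. Of the 21 hepatocyte-made genes, 20 had a positive log2 difference (4-HPAA minus control) and the median was 0.38, against −0.04 for the 6 macrophage-made genes, −0.49 for the 4 others and 0.00 for all genes tested. With limma, 0 of the 31 genes had a Benjamini-Hochberg adjusted p under 0.05 (0% of all genes tested), the smallest being 0.142. At an unadjusted p under 0.05, 17 of 31 were higher, all of them hepatocyte-made, where 7.26% of all genes tested were higher, and 3 of 31 were lower (Mbl2, Colec11 and C5ar1), where 7.56% of all were lower. The exact permutation test (two-sided) gave the same counts, 17 and 3, and 0 after adjustment. Genes of one pathway vary together, so these counts are not of independent genes. The difference between hepatocyte-made and macrophage-made genes was not tested as such.

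**Figure D1:**
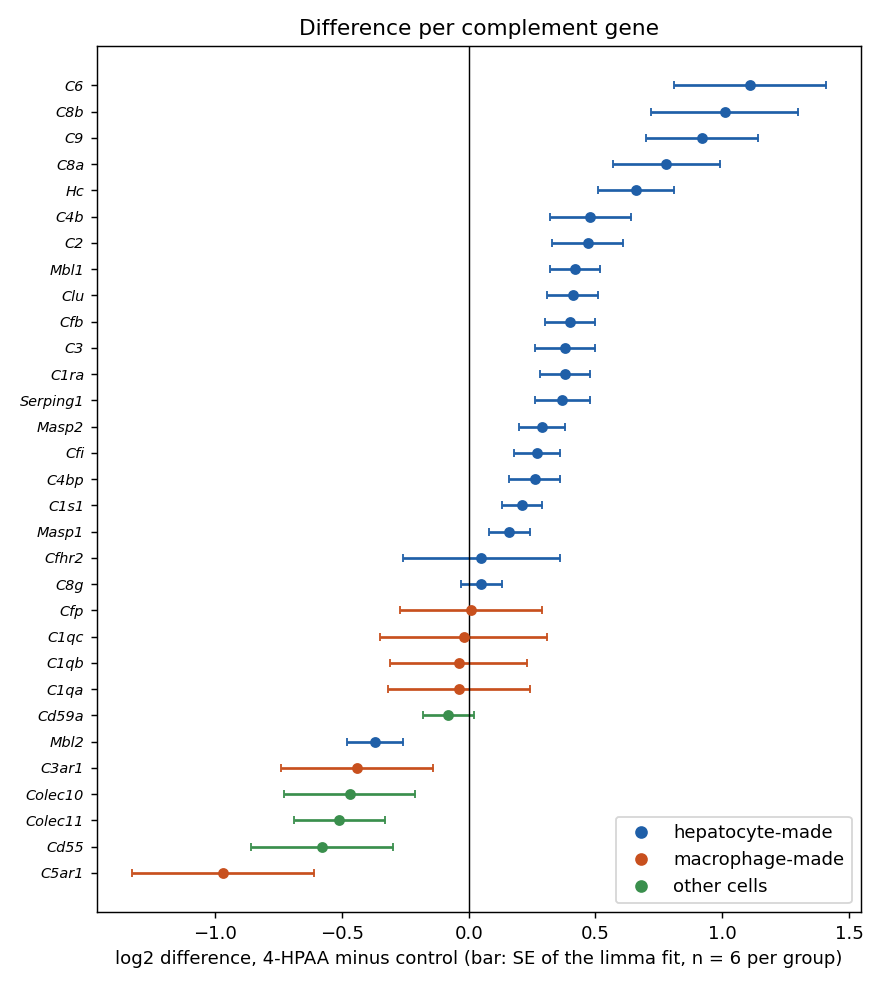
Log2 difference (4-HPAA minus control) of each complement gene on the x axis, with the SE of the limma fit as bars (n = 6 per group). The colour gives the class of the gene, hepatocyte-made, macrophage-made or the 4 others (labelled other cells). Hepatocyte-made genes fill the upper part, from C6 at 1.11 downwards, and Mbl2 at −0.37 is the hepatocyte-made gene on the negative side.

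The 4-HPAA libraries did not take part evenly. Of the 21 hepatocyte-made genes, replicates 1, 2 and 5 each had 18 above the highest control value. Replicate 3 had 16, replicate 6 had 10 and replicate 4 had 0. Among the 17 higher genes the counts were 17, 15, 10 and 0 in that order. Those 17 were picked on these same libraries, so high counts among them are partly built in. Replicate 4 lay above the control mean in 14 of the 17, which is within the range of the controls themselves, 0 to 16. No member separated the groups fully: 0 of 31 had all 6 4-HPAA values above all control values, as 0.307% of all genes tested did, and 0 of 31 had all below, as 0.354% of all did. Without 4-HPAA replicate 4, 10 members had an adjusted p under 0.05 in limma, and 193 of all 12720 genes tested did. The 10 were Hc, Mbl1, C9, Cfb, Clu, C3, C4b, C2, C8a and C6, all higher (limma, adjusted p from 0.0196 to 0.0440). This library is singled out here for its low values of these same genes, so these p-values add no support.

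**Figure D2:**
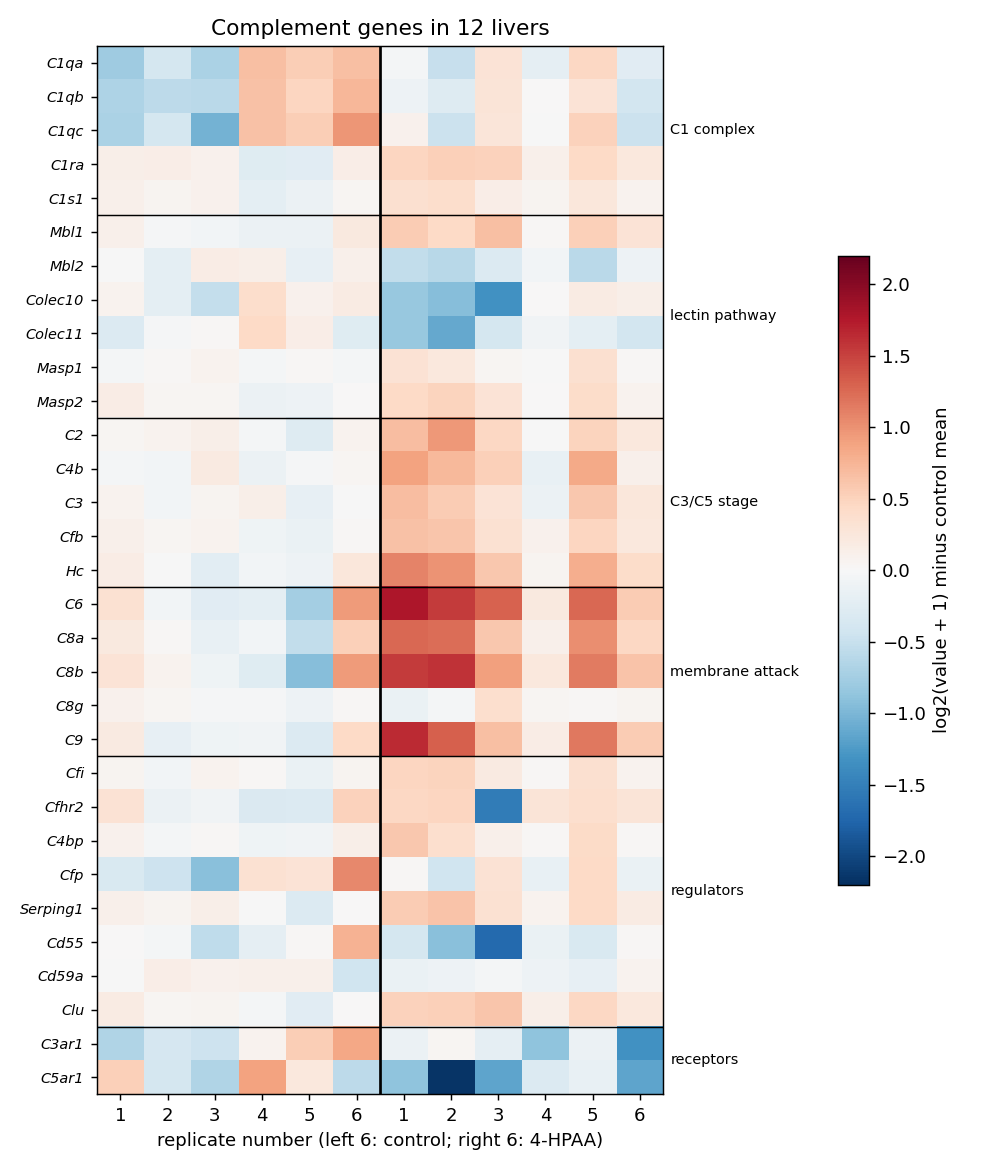
Log2(value + 1) minus the control mean of each complement gene (rows, grouped by role) in each of the 12 libraries (columns, controls left, 4-HPAA right), red for above and blue for below that mean. Red columns run through the C3/C5 stage genes and C6, C8a, C8b and C9 in 4-HPAA replicates 1, 2, 3 and 5. They are pale in replicate 4, and the C8g row is not red in replicates 1 and 2. The C1q genes are blue in control replicates 1 to 3 and red in control replicates 4 to 6.

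Of 11 hepatocyte markers, 3 were higher and 1 lower at an unadjusted p under 0.05, with a median log2 difference of 0.07. The higher ones were Ambp (0.36 ± 0.08), the gene of alpha-1-microglobulin, whose 4-HPAA values all lay above all controls, and the urea cycle genes Ass1 (0.21 ± 0.07) and Cps1 (0.36 ± 0.17). The lower one was albumin (Alb), at 1954494 ± 121265 in controls and 1511587 ± 224096 in 4-HPAA livers (SD over 6 libraries), a log2 difference of −0.38 ± 0.10. The adjusted p of these 4 in limma ran from 0.142 (Ambp) to 0.329 (Cps1). The summed value of 11 hepatocyte markers was dominated by albumin, and without it lay at 922324 to 1203676 in controls and 1051626 to 1154110 with 4-HPAA, so the ranges overlapped. Of 24 other acute phase genes tested, 19 were higher and 0 lower at an unadjusted p under 0.05, with a median log2 difference of 0.58. Their summed value was 781606 in 4-HPAA replicate 4 and 886357 in replicate 6, against 1111490 to 1423555 in the other 4-HPAA libraries and 648273 to 884497 in controls. The part of these differences in the complement values was not tested. In bulk tissue, fewer cells of a type and less RNA per cell cannot be told apart.

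Levels per kilobase of exon differed widely between members, on the assumption that each value is that of the whole gene. The table names 1 transcript per gene, which for 12 of the 31 genes, C3, Cfb, Hc and Clu among them, is shorter than 50% of the gene's joined exons (554 of 5143 bases for C3). For 8 genes the named transcript is not annotated as protein coding. If the reads were counted over the named transcript alone, the levels and their order would be different. Taken over all exons of the gene, C3 was highest in control livers at a mean of 21804 scaled reads per kilobase, followed by Clu (10624), Mbl2 (10206) and Cfb (9733). The lowest were the receptors C3ar1 at 10.4 and C5ar1 at 9.03, and C1qa, C1qb and C1qc were at 562, 597 and 283. Together the 31 genes took 1.5 to 1.72% of all values in controls and 1.58 to 2.49% with 4-HPAA.

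In the C1 complex, the serine proteases were higher with 4-HPAA and the recognition subunits were not. C1ra, which encodes the C1r protease, had values from 5265 to 7042 in controls (median 6818.5) and from 6832 to 9125 with 4-HPAA (median 8663). All but replicate 4 lay above every control, a log2 difference of 0.38 ± 0.10 (SE; limma, adjusted p = 0.161). C1s1, the protease that C1r activates, was at 13275 to 16700 (median 15973) and 15992 to 19977 (median 17630), a difference of 0.21 ± 0.08. Its unadjusted p of 0.0248 went above 0.05 without control replicate 4 or 5 or 4-HPAA replicate 1 or 2, reaching 0.0650. Both genes have close copies, C1rb and C1s2, so their own levels are uncertain.

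The 3 C1q chains, which are assembled together, had values that split the control livers. C1qa lay at 307, 405 and 329 in control replicates 1, 2 and 3 and at 843, 776 and 842 in replicates 4, 5 and 6. The 4-HPAA values, 517, 373, 657, 465, 731 and 446 in replicates 1 to 6, fell between those ends. C1qb ranged from 369 to 983 in controls and 446 to 728 with 4-HPAA, and C1qc from 233 to 942 and 345 to 684. Log2 differences were −0.04 ± 0.28, −0.04 ± 0.27 and −0.02 ± 0.33, with 95% intervals of −0.65 to 0.57, −0.62 to 0.54 and −0.73 to 0.69, so changes of the size seen in C3 were not excluded. Over the 12 libraries C1qa made up 30.2 to 36.0% of the C1q sum, C1qb 33.9 to 41.2% and C1qc 24.4 to 34.0%. The genes lie side by side on the minus strand of chromosome 4 (GRCm38, C1qb 136880129 to 136886187, C1qc 136889804 to 136893065, C1qa 136895917 to 136898803).

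Macrophage markers split the control livers in the same way. The sum of 14 Kupffer cell and macrophage markers, 14 of 14 measured and none at 0, was 3526 to 4288 in control replicates 1 to 3, 8132 to 12112 in control replicates 4 to 6 and 4744 to 8226 with 4-HPAA. None of the 14 had an unadjusted p under 0.05, and their median log2 difference was −0.05. Clec4f, a Kupffer cell lectin, was at 596 to 864 in control replicates 1 to 3 and 1462 to 1736 in replicates 4 to 6. The part of macrophage content in the C1q values was not tested, and the labels name no grouping within the controls.

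**Figure D3:**
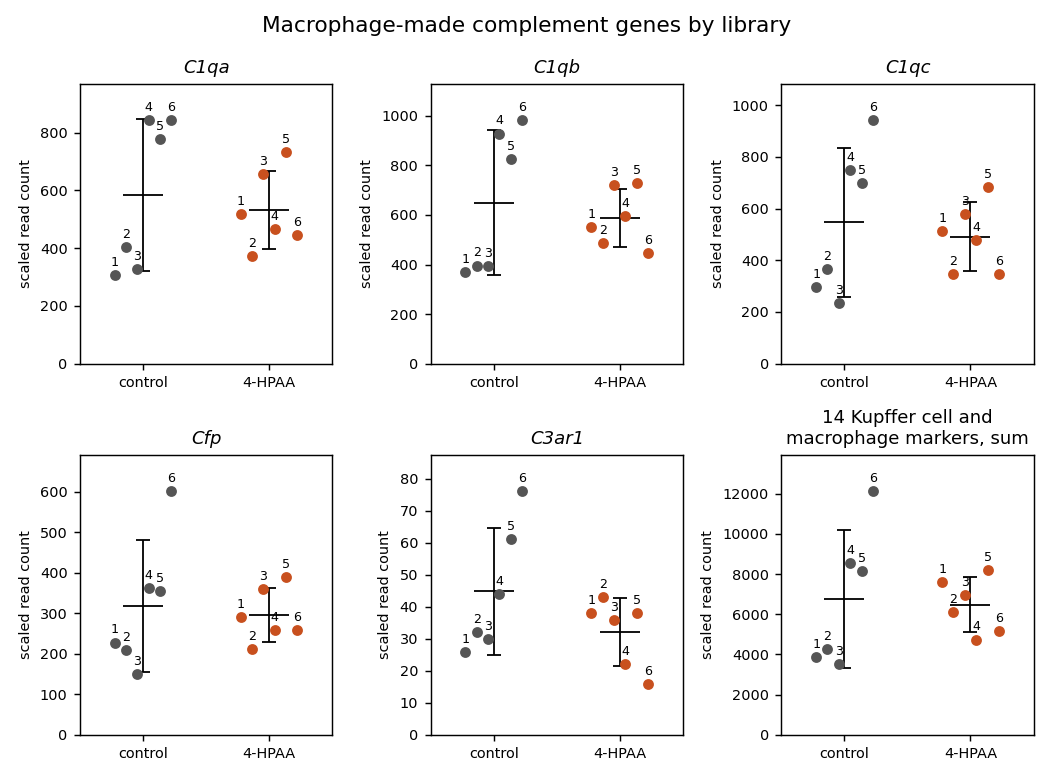
Scaled read count (y axis, from 0) of 5 macrophage-made complement genes and of the summed Kupffer cell and macrophage markers in each library, numbered by replicate, with the mean and SD of each group as a bar. Control replicates 1 to 3 lie below and 4 to 6 at or above the level of most 4-HPAA libraries in the C1q panels and in the marker sum.

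Cfp encodes properdin, which stabilises the alternative pathway convertase. Its values were 151 to 601 in controls (median 292) and 213 to 389 with 4-HPAA (median 275.5), a log2 difference of 0.01 ± 0.28 (95% interval −0.60 to 0.61). The C3a receptor gene C3ar1 was low, at 26 to 76 in controls and 16 to 43 with 4-HPAA, a difference of −0.44 ± 0.30 (limma, adjusted p = 0.533). C5ar1, the C5a receptor gene, was at 31, 16, 13, 40, 25 and 14 in control replicates 1 to 6 and at 11, 4, 9, 17, 19 and 9 with 4-HPAA. The log2 difference was −0.97 ± 0.36 (limma, unadjusted p = 0.0184, adjusted p = 0.242), with 4 of 6 4-HPAA values under the lowest control. At such values counting error is a large part of each one. Of 5 markers of recruited myeloid cells tested, 3 (Itgax, Cx3cr1 and Ccr2) were lower at an unadjusted p under 0.05 in limma. The other 2 differed by −0.19 ± 0.32 (Trem2) and 0.14 ± 0.62 (S100a9). The 3 lower ones were also low, with means of 34.5 to 46.5 in controls and 17.0 to 25.3 with 4-HPAA. The summed value of the 7 such markers measured was 101 to 276 in controls and 89 to 220 with 4-HPAA. The part of these cells in the receptor values was not tested.

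The lectin pathway held opposite differences in its mannose-binding lectins. Mbl1, which encodes mannose-binding lectin A, had values of 3924 to 4984 in controls (median 4184.5) and 4392 to 6802 with 4-HPAA (median 5978). All but replicate 4 lay above every control, a difference of 0.42 ± 0.10 (limma, adjusted p = 0.142). Mbl2, for mannose-binding lectin C, was at 9577 to 12323 in controls (median 11454.5) and 7202 to 10670 with 4-HPAA (median 8301). Here replicates 1, 2, 3 and 5 lay below every control and replicates 4 and 6 within their range, a difference of −0.37 ± 0.11 (limma, adjusted p = 0.195). The ratio of Mbl1 to Mbl2 values was 0.325 to 0.443 in controls. With 4-HPAA it was 0.758 to 0.842 in replicates 1, 2, 3 and 5, 0.521 in replicate 6 and 0.412 in replicate 4, which alone fell in the control range.

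**Figure D4:**
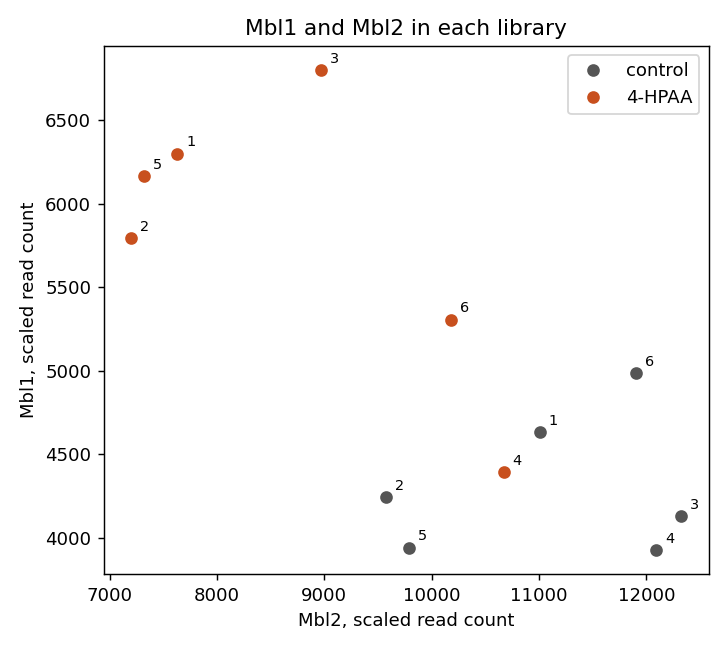
Mbl1 (y axis) against Mbl2 (x axis) in scaled read counts, 1 point per library numbered by replicate, with axes that do not start at 0. 4-HPAA replicates 1, 2, 3 and 5 lie at upper left, with Mbl2 at 7202 to 8972 and Mbl1 at 5792 to 6802, and 4-HPAA replicate 4 lies among the controls.

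The upstream sequences of this pair are shown because the lectins differ in direction while coming from related genes. Each runs 5′ to 3′ over the 250 bases before the RefSeq start site (GRCm38.p6, plus strand), and capitals mark the longest run of letters found in both, 13 bases that begin 23 bases before the Mbl1 start and 57 bases before the Mbl2 start. Mbl1 is at chr14:41151206-41151455 and Mbl2 at chr19:30232678-30232927.
Mbl1: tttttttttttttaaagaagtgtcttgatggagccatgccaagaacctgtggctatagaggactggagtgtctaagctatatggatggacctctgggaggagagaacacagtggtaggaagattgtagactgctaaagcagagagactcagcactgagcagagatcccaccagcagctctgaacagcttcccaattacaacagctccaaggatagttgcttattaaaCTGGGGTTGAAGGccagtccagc
Mbl2: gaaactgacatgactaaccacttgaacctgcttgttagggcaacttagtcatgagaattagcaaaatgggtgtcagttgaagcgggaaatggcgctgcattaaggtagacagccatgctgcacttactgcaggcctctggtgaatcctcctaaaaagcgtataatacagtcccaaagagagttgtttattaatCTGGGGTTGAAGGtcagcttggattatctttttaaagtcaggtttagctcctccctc

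The collectins CL-L1 (Colec10) and CL-K1 (Colec11), which stellate cells of the liver also make, were on the lower side. Colec11 was at 703 to 1179 in controls and 397 to 826 with 4-HPAA, with 4 of 6 4-HPAA values below every control and a log2 difference of −0.51 ± 0.18 (limma, unadjusted p = 0.0122, adjusted p = 0.216). Colec10 was at 312 to 593 and 178 to 514, a difference of −0.47 ± 0.26 (limma, adjusted p = 0.430), and 4-HPAA replicates 1, 2 and 3 held the 3 values under every control. Stellate cell markers also lay on the lower side, with negative differences in 12 of 12, 6 of them at an unadjusted p under 0.05, and a summed value of 9832 to 15116 in controls and 6049 to 11719 with 4-HPAA. The part of stellate cell content in the collectin values was not tested. Of the proteases that these lectins activate, Masp2 was at 3852 to 4720 in controls and 4274 to 5928 with 4-HPAA, a difference of 0.29 ± 0.09 (limma, adjusted p = 0.2). Masp1 was at 3753 to 4121 and 3850 to 4970, a difference of 0.16 ± 0.08 (limma, unadjusted p = 0.0572).

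All 5 genes of the C3 and C5 stage were higher at an unadjusted p under 0.05, with a median log2 difference of 0.47. C3, the protein on which the pathways meet, was at 117778, 106668, 117048, 122157, 98541 and 110639 in control replicates 1 to 6 and at 179550, 165094, 137338, 102757, 168928 and 132741 with 4-HPAA. All 4-HPAA libraries but replicate 4 were above the highest control, a difference of 0.38 ± 0.12 (limma, adjusted p = 0.206). C4b, whose product joins C2 in the classical and lectin convertase, had a control mean of 38378 ± 3153 (SD, 6 libraries) and a 4-HPAA mean of 55369 ± 14688, differing by 0.48 ± 0.16. Replicate 4, at 34370, was below every control and replicate 6, at 41346, within their range. C4b has a near-identical copy, C4a, so its own level is uncertain.

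C2, the protease of that convertase, was at 2483 to 3306 in controls and 3013 to 5834 with 4-HPAA (0.47 ± 0.14), and Cfb, its counterpart in the alternative pathway, at 24744 to 29505 and 29181 to 42720 (0.40 ± 0.10; limma, adjusted p = 0.142). C2 and Cfb neighbour each other on the minus strand of chromosome 17 (C2 34862604 to 34898265, Cfb 34856374 to 34862518), near C4b (34728380 to 34743882). The ratio of Cfb to C3 values was 0.210 to 0.266 in controls and 0.225 to 0.284 with 4-HPAA, and these ranges overlapped. Hc, which encodes C5, was at 15717 to 21701 in controls (median 17925.5) and 19246 to 39274 with 4-HPAA (median 29847.5). Only replicate 4 lay within the control range, and the difference of 0.66 ± 0.15 had the smallest p of the 31 genes (limma, unadjusted p = 0.000749, adjusted p = 0.142).

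The largest positive differences among the 31 genes were in membrane attack genes, C6, C8b, C9 and C8a, while C8g was near 0. C6 encodes the second protein of the complex, and was at 4402, 3378, 2931, 3025, 2077 and 6745 in control replicates 1 to 6 and at 12031, 10147, 8642, 4089, 8420 and 5172 with 4-HPAA. The difference was 1.11 ± 0.30, or 2.16-fold (limma, adjusted p = 0.166), with 4-HPAA replicates 4 and 6 under the highest control, replicate 6. C9, which forms the wall of the pore, was at 6900 to 11506 in controls (median 7956.5) and 9465 to 26305 with 4-HPAA (median 16140.5). All but replicate 4 exceeded every control, a difference of 0.92 ± 0.22, or 1.89-fold (limma, adjusted p = 0.142).

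C8 is built of an alpha, a beta and a gamma chain, and the genes of the alpha and beta chains had larger differences than that of the gamma chain, a contrast that was not itself tested. C8a, for the alpha chain, had a control mean of 13780 ± 3403 (SD, 6 libraries) and a 4-HPAA mean of 24086 ± 7412, differing on the log2 scale by 0.78 ± 0.21 (limma, adjusted p = 0.164). C8b, for the beta chain, averaged 4991 ± 2178 and 9787 ± 3384, a difference of 1.01 ± 0.29 (limma, adjusted p = 0.192). C8g, for the gamma chain, a lipocalin, averaged 11158 ± 560 and 11638 ± 1501. Its difference was 0.05 ± 0.08, with a 95% interval of −0.13 to 0.23. The ratio of C8a to C8g values ran from 0.903 to 1.7 in controls and 1.26 to 3.24 with 4-HPAA, and these ranges overlapped. Control replicate 6 was the highest and replicate 5 the lowest control for C6, C8a, C8b and C9. The ratio of C8b to C8g values ran from 0.234 to 0.776 in controls and 0.471 to 1.34 with 4-HPAA, and only 4-HPAA replicates 1, 2 and 5 exceeded the controls. C8a and C8b lie next to each other on chromosome 4 on opposite strands (C8b 104766317 to 104804548 plus, C8a 104815679 to 104876398 minus), and C8g lies on chromosome 2.

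**Figure D5:**
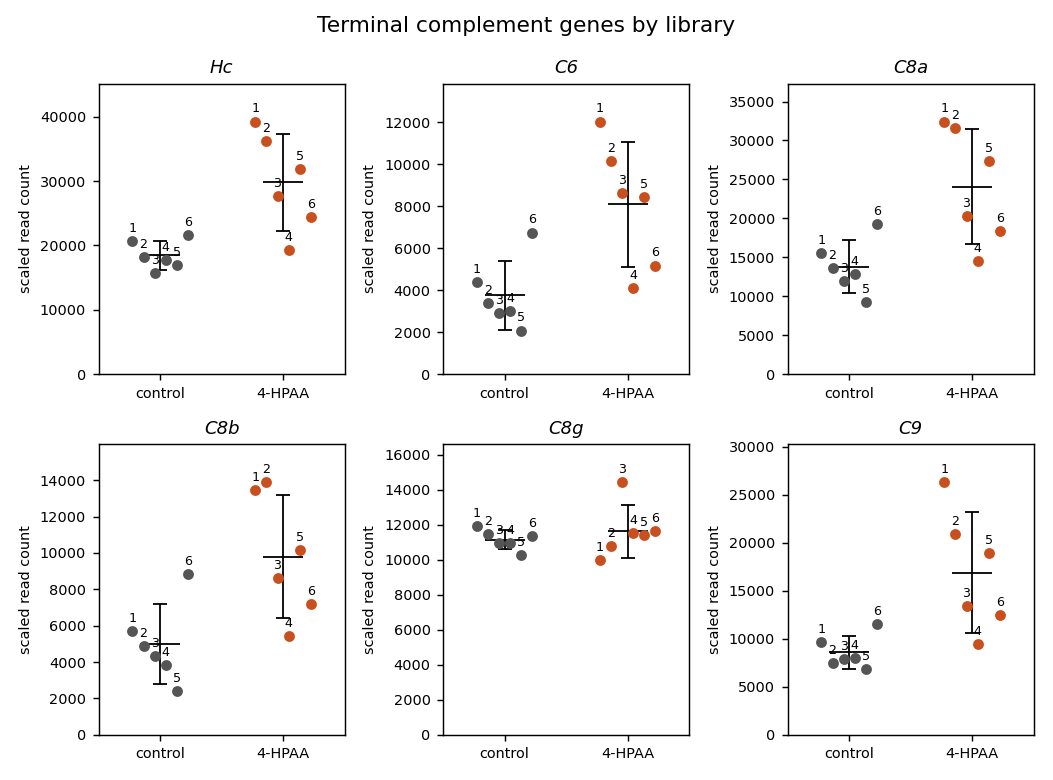
Scaled read count (y axis, from 0) of Hc and the 5 membrane attack genes in each library, numbered by replicate, with the mean and SD of each group as a bar. C6, C8a, C8b and C9 are higher in 4-HPAA replicates 1, 2 and 5 than in every control, while C8g stays near the same level apart from 4-HPAA replicate 3 at 14440.

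Promoter windows were searched for letters that liver transcription factors bind, since most hepatocyte-made genes were on the higher side. RefSeq promoter windows (GRCm38.p6) matched 22 of the 31 genes, 14 of them hepatocyte-made, and the 250 bases before each start were searched on both strands, a gene with several windows counting once. No match overlapped a match of another motif. TTCNNNGAA, bound by STAT factors, was found in 2 of the 14 (C8a and Masp2), or 14.3% against 7.02% of all 32851 windows. TTGCNNAA, bound by C/EBP factors, was found in 3 of the 14 (C1s1, C3 and C9), or 21.4% against 9.56%. A loose NF-kB motif (GGG and CC with 5 free letters between them) was in 14.3% against 45.8%, and CAAAGTCCA, an HNF4 site, in 0 of the 14 against 0.384%. Among the 5 macrophage-made genes with a window, the NF-kB motif was found in 4. A gene counted if any of its windows matched, while the share over all is per single window, so the shares set side by side are not quite alike. With only 14 genes, the differences between these shares were not tested. These are matches of letters, not measured binding. The windows of 2 genes with the C/EBP letters, chosen because RefSeq gives each a single start site, are shown with those letters in capitals, 5′ to 3′ on the strand of the gene, at chr17:57228137-57228386 (C3, minus strand) and chr15:6445096-6445345 (C9, plus strand).
C3: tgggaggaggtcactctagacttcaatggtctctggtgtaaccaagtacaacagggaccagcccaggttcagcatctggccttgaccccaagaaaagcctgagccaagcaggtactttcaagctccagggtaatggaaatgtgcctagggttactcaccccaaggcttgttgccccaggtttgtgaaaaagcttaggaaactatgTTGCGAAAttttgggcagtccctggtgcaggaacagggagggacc
C9: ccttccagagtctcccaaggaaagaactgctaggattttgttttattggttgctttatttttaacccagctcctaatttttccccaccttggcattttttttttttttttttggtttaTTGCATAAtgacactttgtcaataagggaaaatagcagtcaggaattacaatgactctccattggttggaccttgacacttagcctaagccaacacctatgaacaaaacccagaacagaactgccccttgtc

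Among the regulators, the hepatocyte-made plasma proteins were mostly higher. Clu encodes clusterin, which keeps the membrane attack complex from inserting into membranes. It was at 30782 to 41210 in controls (median 36997) and 39754 to 55363 with 4-HPAA (median 50613), with all but replicate 4 above every control and a difference of 0.41 ± 0.10 (limma, adjusted p = 0.142). Serping1, the inhibitor of C1r, C1s and the MASP proteases, was at 15054 to 20245 and 19472 to 28521 (0.37 ± 0.11; limma, adjusted p = 0.183). Cfi, the protease that cleaves C3b and C4b, was at 12982 to 15184 and 14745 to 20338 (0.27 ± 0.09), and C4bp, its cofactor for C4b, at 14153 to 16518 and 15449 to 22988 (0.26 ± 0.10). The unadjusted p of C4bp, 0.0220, went above 0.05 without 4-HPAA replicate 1 (0.0541) or replicate 5 (0.0526).

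Cfhr2, a gene of a plasma regulator family, had a difference of 0.05 ± 0.31, with 1 library far from the rest. It was at 10242 to 18181 in controls and at 15477 to 17606 in 5 of the 4-HPAA libraries, but at 4388 in replicate 3. Without that library the difference was 0.37 (limma, unadjusted p = 0.0185, adjusted p = 0.187). Cfhr2 belongs to a family of similar genes, and how shared reads were counted is not given, so its level is uncertain. The membrane regulator genes Cd55, for decay accelerating factor, and Cd59a, for the inhibitor of C9 assembly, had differences of −0.58 ± 0.28 and −0.08 ± 0.10 (limma, adjusted p = 0.355 and 0.734). Cd55 was at 199 to 496 in controls and 89 to 298 with 4-HPAA, its lowest value again in replicate 3. Both have close copies, Cd55b and Cd59b.

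Of 33 other complement genes listed, 23 were tested, with 4 higher and 3 lower at an unadjusted p under 0.05, 0 after adjustment (limma, smallest adjusted p = 0.148), and a median log2 difference of 0.02. Hepatocyte-made members of this list were again on the higher side: Cpn2, a subunit of the carboxypeptidase that inactivates C3a and C5a, differed by 0.38 ± 0.10, Vtn (vitronectin, an inhibitor of the membrane attack complex) by 0.38 ± 0.10 and Cpb2, another carboxypeptidase, by 0.34 ± 0.10. Cfd, the gene of factor D or adipsin, which fat cells make and which cleaves factor B, was at 205 to 1133 in controls and 20 to 450 with 4-HPAA, a difference of −2.65 ± 0.73 (limma, adjusted p = 0.183). The 450 was in replicate 3 and the next, 298, in replicate 4, and the other 4-HPAA libraries lay at 20 to 80.

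Among 20 genes that regulate complement transcription in hepatocytes, 3 were higher and 0 lower at an unadjusted p under 0.05, with a median log2 difference of 0.04. Stat3, the transcription factor of the interleukin-6 response, was at 2060 to 2696 in controls and 2833 to 4038 with 4-HPAA in all libraries but replicate 4, which was at 2004 and below every control. Its difference was 0.44 ± 0.14 (limma, adjusted p = 0.2). Socs3, a feedback inhibitor that STAT3 induces, was at 96 to 411 and 172 to 658, a difference of 1.11 ± 0.37. Il1r1, the interleukin-1 receptor gene, differed by 0.61 ± 0.28 (limma, unadjusted p = 0.0503). In the acute phase list, the genes of smallest p were Serpina3k (0.74 ± 0.18), Orm1 (1.05 ± 0.26), Itih4 (0.57 ± 0.15) and Fgl1 (1.27 ± 0.34).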

How the data were processed

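Liver messenger RNA was sequenced in 6 control and 6 4-HPAA libraries. Per the submitters' processing notes, the tools were STAR and HTSeq, with cutadapt, FastQC 0.11.9, edgeR and DESeq2 1.28.1, on mouse build GRCm38. Each tool's role was not given in the sources used here, nor was the annotation release. Per the labels' protocols, libraries were directional TruSeq mRNA libraries run on an Illumina NovaSeq. The deposited values were treated as a score: they look like read counts that the authors scaled per library and rounded again. In 5 libraries 1 to 7 whole numbers between 3 and 60 never occur, and median-of-ratios factors of the columns are 1.003 to 1.009. The raw depth was not computed. No value is below 2.

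Each row carries 1 Ensembl transcript ID, assumed to stand for its gene although it is often a short transcript, and GENCODE M21 named 13203 of 13267 rows. Levels per kilobase use the union of a gene's exons and rest on that assumption. Limma 3.58.1 in R 4.3.3 was fitted with its trend and robust options to log2(value + 1) for genes at 10 or more in at least 6 libraries, with Benjamini-Hochberg adjustment over all 12720 genes. A fold change on this scale understates the change of low genes. No 2 libraries of a group differed by as little as sampling noise (chi-square per gene 18.58 to 125.01 over 30 pairs). Members and gene lists were chosen with earlier results of these data known. Values are given for members with an unadjusted p under 0.05, for C3, C4b and Hc and for macrophage-made members, and the 4 genes of smallest p are named from each other list, except items that are not reported here. Alternatives were another pseudocount, other filters, scalings and tests, array weights, a replicate block and each library left out. Figures used matplotlib 3.10.9.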

Additional observations from a re-analysis of the deposited data

Results flagged for a closer look

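Of 62 groups of 6 values (31 genes in each group), 5 held a value whose gap to the nearest other one exceeded 0.625 of the group's range, and chance alone gives about 1 in 20. In 4-HPAA replicate 3, Cfhr2 was at 4388 where the other 4-HPAA libraries lay at 15477 to 17606, and C8g was at 14440 where they lay at 10016 to 11637. In control replicate 5, Serping1 was at 15054 against 18490 to 20245 in the other controls. In control replicate 6, Cd55 was at 496 against 199 to 297, and Cd59a was at 1220 against 1642 to 1832. Without control replicate 6 the log2 difference of Cd59a was −0.17 (limma, unadjusted p = 0.0240, adjusted p = 0.241). The same control library held the highest values of C6, C8a, C8b and C9.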

How the results depend on the processing

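Over 21 alternatives, 9 that kept all libraries and 12 that left out 1, the count of complement genes higher at an unadjusted p under 0.05 stayed within 15 to 19, and the median of hepatocyte-made genes within 0.34 to 0.46. With array weights, 5 complement genes (Mbl1, Cfb, Hc, C9 and Clu) and 139 genes in all had an adjusted p under 0.05. With 1 library left out, these counts ranged from 0 to 10 and from 0 to 193, both highest without 4-HPAA replicate 4, and without control replicate 1 there were 5 genes in all and 0 members. The count of lower genes ranged from 3 to 5 with 1 library left out, and was 5 without 4-HPAA replicate 6. With the replicate block (the replicate number as a factor) it was 5, Colec10 and Cd55 being added, and 11 genes in all had an adjusted p under 0.05. The labels do not say whether the numbers pair the samples. Same-numbered libraries had correlations of their deviations from −0.183 to 0.282, and 3 of 6 control libraries correlated best with their own number. With only 6 numbers, this check cannot decide whether they mark a pairing or a shared batch.

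Among the members, signs turned for C1qa, C1qb, C1qc, Cfp, C8g and Cfhr2, all near 0. With array weights C1qa was at 0.02, C1qb at 0.05, C1qc at 0.07 and C8g at −0.01, and with scaling to equal totals Cfp was at −0.02. With 1 library left out, C1qa ranged from −0.20 to 0.09, C1qb from −0.17 to 0.11, C1qc from −0.23 to 0.18, Cfp from −0.18 to 0.22, C8g from −0.01 to 0.09 and Cfhr2 from −0.03 to 0.37, and the median of macrophage-made genes from −0.20 to 0.10. At the values of C3ar1 and C5ar1, 4 to 76, depth limits what can be seen, and with a minimum of 100 neither was tested.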
